A study of Mus musculus with 100 samples.

Results

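Nisch, Tpcn2, Gm1966 and Calm2 are the 4 mouse genes nearest to the regions at which acetylation of histone H3 on lysine 27 (H3K27ac) differed most between macrophages with and without a Cre-deleted Pgc1b gene. They were chosen by their values: the region assigned to Tpcn2 had the lowest p of all 25197 tested regions for the genotype difference under KLA, Nisch the lowest p for the difference in KLA response, Gm1966 the lowest p under vehicle, and Calm2 the lowest p among regions whose KLA response was higher in the Cre-carrying cells. Of 610301 regions in 15 tables of ChIP-seq tags, 253 carried one of the 4 names, 55 of them Nisch, 43 Tpcn2, 98 Gm1966 and 57 Calm2. The table of H3K27ac by Pgc1b genotype held 29767 regions, and 13 of these were member regions, all of which passed the filter on low tag counts. For each gene the one with the lowest p in any genotype comparison is called its lead region here, and the values that selected it are given as a description without a test.

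The study used ChIP-seq of bone marrow-derived macrophages (BMDMs) from C57BL/6 mice of 8 to 12 weeks, given vehicle (Veh) or KLA at 100 ng/mL for 6 h (Kdo2 lipid A, which activates TLR4), with 2 biological replicates in every group. PGC1b flox/flox BMDMs were compared with PGC1b flox/flox, LysMCre BMDMs, called flox and flox Cre below. Both genotypes carry the floxed alleles, and the flox Cre cells also carry Cre under the promoter of lysozyme M (Lyz2), active in myeloid cells, so that loss of PGC1β and presence of Cre cannot be told apart. Wild type (WT) BMDMs with DMSO and Veh, with DMSO and KLA, or with KLA and the HDAC3 inhibitor RGFP966 made a second H3K27ac table over the same 1000-bp windows. WT and NKO (NCoR flox/flox, LysMCre) BMDMs with Veh or KLA made another, and the other tables held NCoR, HDAC3, p65, Fosl2, PU.1, PGC1β, ERK1 and p300 in WT cells, including KLA with an ERK inhibitor (ERKi) and bone marrow cells at day 0 and day 4 of osteoclast culture. Levels are tags per 10 M tags of the library. The 70 libraries held between 4.30 and 21.5 M tags, and the 8 libraries of the Pgc1b table between 13.8 and 17.8 M. The share of tags within regions was 35.8% and 35.9% in flox Veh, 29.9% and 30.1% in flox KLA, 31.6% and 30.9% in flox Cre Veh, and 22.4% and 21.97% in flox Cre KLA.

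PGC1β is a coactivator that binds nuclear receptors such as ERRα and is best known for driving mitochondrial genes. NCoR and HDAC3 form a corepressor complex whose deacetylase activity removes acetyl groups from histones, while p300 adds them, so that H3K27ac marks active enhancers and promoters. TLR4 agonists such as KLA activate NFκB (p65) and AP-1 (Fosl2) at enhancers that PU.1, the lineage factor of macrophages, keeps open. Nisch encodes nischarin, which binds integrin α5 and restrains cell migration. Tpcn2 encodes TPC2, a cation channel of endolysosomes. Calm2 is one of several genes that encode the same calmodulin protein, the calcium sensor. Gm1966 is a predicted gene. Gvin1, on the same chromosome and counted below among the paralogues, encodes a very large interferon-inducible GTPase. Gene names here are those of the nearest transcription start site (TSS), and expression of the genes was not measured in these libraries.

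The sequence under the PU.1 region at each locus is shown because it places the transcription factor motifs within the regions described below. Each is 201 bases of the plus strand of GRCm38.p6 (mm10), read 5′ to 3′, with matches to a motif in capitals. The Nisch sequence is chr14:31188755-31188955, of which the first 40 bases lie in an exon and the rest in an intron. The Tpcn2 sequence is chr7:145283143-145283343 in intron 1, where the gene's PU.1 signal was highest. The Gm1966 sequence, chr7:106651982-106652182, and the Calm2 sequence, chr17:87531643-87531843, are intergenic.
Nisch: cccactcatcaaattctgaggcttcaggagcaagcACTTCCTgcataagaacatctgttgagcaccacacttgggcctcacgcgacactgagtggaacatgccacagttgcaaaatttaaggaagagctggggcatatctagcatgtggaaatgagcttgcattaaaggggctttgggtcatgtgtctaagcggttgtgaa
Tpcn2: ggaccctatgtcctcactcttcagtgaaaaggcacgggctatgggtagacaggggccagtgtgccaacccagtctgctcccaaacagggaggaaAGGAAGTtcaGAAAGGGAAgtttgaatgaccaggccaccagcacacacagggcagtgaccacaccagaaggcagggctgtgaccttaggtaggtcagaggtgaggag
Gm1966: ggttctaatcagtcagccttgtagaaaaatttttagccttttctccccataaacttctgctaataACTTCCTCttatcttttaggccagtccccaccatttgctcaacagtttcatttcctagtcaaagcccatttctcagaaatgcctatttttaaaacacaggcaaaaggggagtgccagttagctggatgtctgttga
Calm2: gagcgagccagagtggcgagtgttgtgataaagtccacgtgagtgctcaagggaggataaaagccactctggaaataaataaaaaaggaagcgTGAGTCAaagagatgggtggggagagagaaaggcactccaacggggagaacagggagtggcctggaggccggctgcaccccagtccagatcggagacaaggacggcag
The motifs searched on both strands were GAGGAAGT (PU.1), its inner part AGGAAGT (the ETS core, a choice made after the sequences had been read), TGANTCA (AP-1), GGGANTTTC (NFκB), GAAANNGAA (IRF) and TCAAGGTCA (ERR). The ETS core occurred in the Nisch, Tpcn2 and Gm1966 sequences, in Gm1966 within the full PU.1 motif. The Tpcn2 sequence also held the IRF motif, GAAAGGGAA, and the Calm2 sequence held the AP-1 motif, TGAGTCA, and no ETS core. Of 50683 windows of the same length under PU.1 regions, 35.5% held the ETS core, 18.1% the PU.1 motif, 13.9% the AP-1 motif, 10.6% the IRF motif, 1.04% the NFκB motif and 0.375% the ERR motif. Neither the NFκB nor the ERR letters were in any of the 4 windows.

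The lead regions of Nisch and Tpcn2 lost H3K27ac in flox Cre cells under KLA, and that of Gm1966 carried more H3K27ac in flox Cre cells under both conditions. The Calm2 region was higher in flox Cre cells under KLA and lower under Veh. With TMM scaling the KLA differences were -1.16 at Nisch, -1.50 at Tpcn2, 1.13 at Gm1966 and 1.33 at Calm2, the difference under Veh turned from -0.18 to 0.024 at Tpcn2, and the KLA response of flox Cre cells at Nisch went from -1.19 to -0.57, below 2-fold. For comparison, the median log2 difference of flox Cre minus flox over all 25197 tested regions was -0.20 under Veh and -0.38 under KLA, and the median difference in KLA response was -0.18. Regions were called where an edgeR quasi-likelihood F-test gave an adjusted p under 0.05 and the difference was above 2-fold. By that rule 0.397% of tested regions were called between genotypes under Veh, 7.52% under KLA and 5.37% for the KLA response. Among the 13 member regions 3 were higher under Veh, 2 higher and 3 lower under KLA (4 and 2 with TMM scaling), and 2 higher and 4 lower for the response. KLA against Veh raised 1 and lowered 1 of the 13 in flox cells (30.8% of tested regions called) and raised 0 and lowered 4 in flox Cre cells (36.7% called), where TMM scaling gave 3 and 3. These counts come from the contrasts that chose the genes, and nothing is read from them.

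The Nisch lead region (chr14:31188361-31189361) lies in intron 7 of 13, 17965 bp downstream of the TSS. Its level was 524 and 539 in flox Veh, 725 and 716 in flox KLA, 585 and 536 in flox Cre Veh, and 235 and 256 in flox Cre KLA. The genotypes overlapped under Veh and lay well apart under KLA, where H3K27ac was higher than under Veh in flox cells and lower in flox Cre cells. The log2 difference between genotypes was 0.08 ± 0.07 (SE, n = 2) under Veh and -1.55 ± 0.08 under KLA, and the KLA responses differed by -1.63 ± 0.11. It was the only Nisch region in this table.

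The Tpcn2 lead region (chr7:145283528-145284528) covers the promoter, with its centre at -17 bp from the TSS. Its level was 668 and 722 in flox Veh, 430 and 480 in flox KLA, 572 and 651 in flox Cre Veh, and 131 and 115 in flox Cre KLA. KLA lowered it in both genotypes, and the flox Cre KLA libraries lay far below all others. The log2 genotype difference was -0.18 ± 0.07 under Veh and -1.89 ± 0.09 under KLA. An overlapping region in intron 1 (chr7:145282759-145283759) read 456 and 461, 258 and 288, 439 and 447, and 111 and 112 in the same order of groups. Its log2 differences of -0.05 and -1.29 had the same signs as those of the promoter.

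The Calm2 lead region (chr17:87531238-87532238) is intergenic, with its centre at -84803 bp from the Calm2 TSS. Its level was 185 and 222 in flox Veh, 95.5 and 115 in flox KLA, 155 and 146 in flox Cre Veh, and 196 and 205 in flox Cre KLA. KLA lowered H3K27ac there in flox cells and raised it in flox Cre cells, with no overlap in either genotype. The log2 genotype difference was -0.43 ± 0.13 under Veh and 0.93 ± 0.14 under KLA, and the KLA responses differed by 1.36 ± 0.19. A region beside it (chr17:87530073-87531073) was lower in all 8 libraries, between 20.6 and 54.7, with a response difference of 1.14 ± 0.41. Both Calm2 promoter regions had the opposite sign under KLA, at -0.57 and -0.48, and did not pass 2-fold.

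The Gm1966 lead region (chr7:106651589-106652589) is intergenic, with its centre at -7444 bp from the TSS. Its level was 26.4 and 6.24 in flox Veh, 128 and 176 in flox KLA, 149 and 149 in flox Cre Veh, and 261 and 247 in flox Cre KLA. The flox Veh libraries were near background, and each flox Cre library was above each flox library of the same treatment. The log2 genotype difference was 3.10 ± 0.20 under Veh and 0.74 ± 0.13 under KLA. Another region (chr7:106616619-106617619), in intron 1 of 2 and within an MMVL30-int element, an endogenous retrovirus of the ERV1 class, held 0 tags in both flox Veh libraries against 241 tags in the flox Cre Veh libraries, which is at least 83.3-fold higher in flox Cre when 3 tags over the group are taken as the floor. Under KLA it held 1 tag in flox and 267 tags in flox Cre, a ratio of 297 with an exact 95% interval of 52.8 to 11764 that covers counting error only. Among all regions of the table it was the only one with at most 1 tag over the 4 flox libraries and at least 16 tags in each flox Cre library, and 0 regions showed the reverse, by a rule set after this region had been seen. Reads at Gm1966 may be shared with near-identical copies, so these counts are uncertain. The region at 31724 bp from the TSS read 15.7 and 13.9, 10.4 and 11.8, 38.7 and 25.2, and 35.4 and 28.003 in the same order of groups. By the DESeq2 Wald test, the lead region was the only Gm1966 region called between genotypes under Veh. The region at 85938 bp, between 5.51 and 22.3 in all 8 libraries, was the only Gm1966 region not higher in flox Cre.

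**Figure D1:**
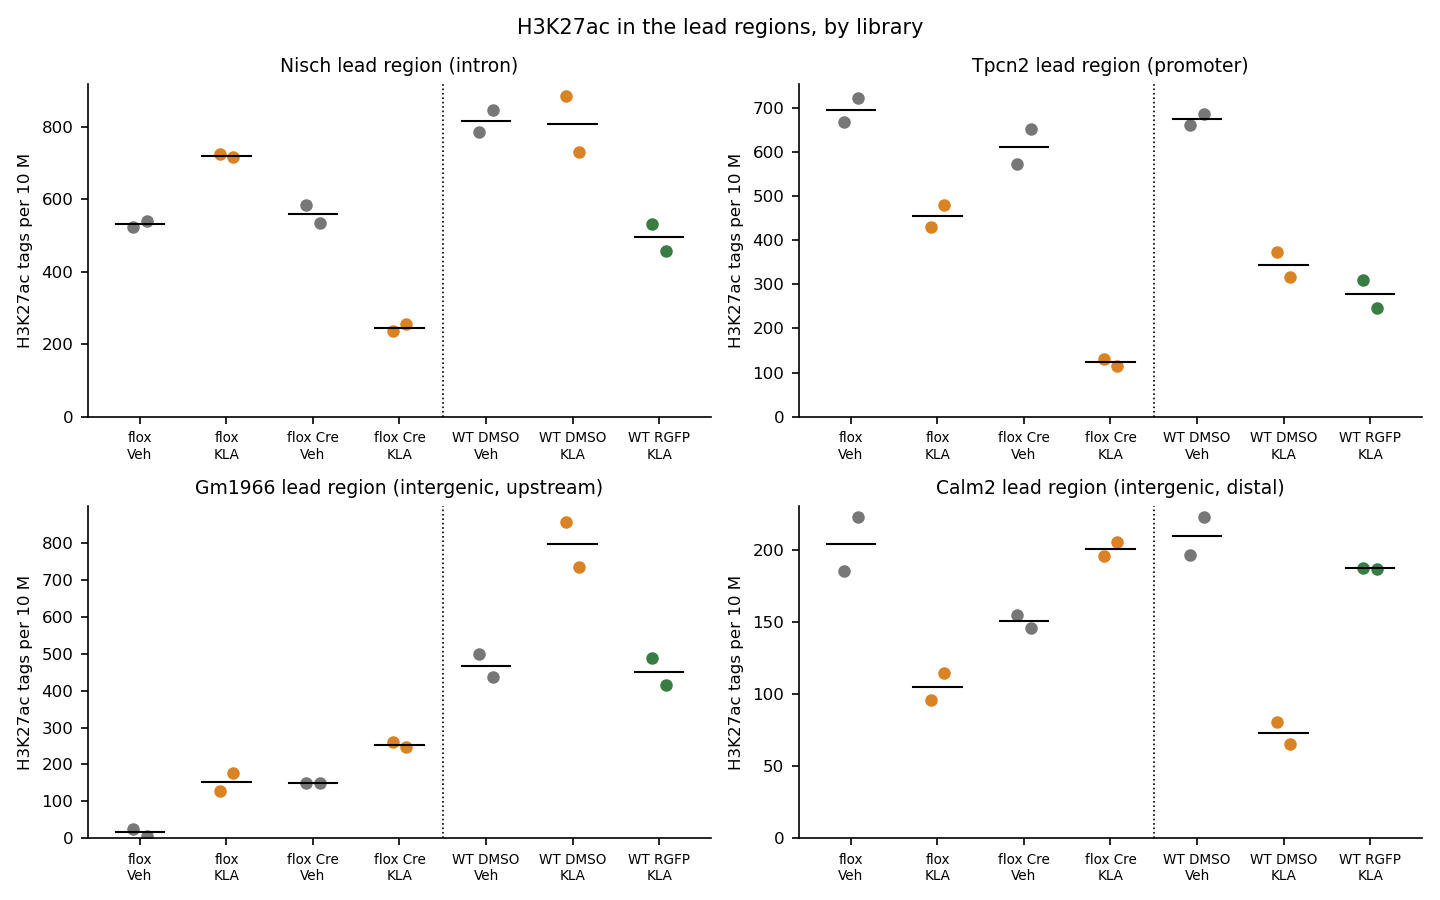
H3K27ac in the 4 lead regions, in tags per 10 M (vertical axis, from 0), for each library (points) with the group mean (line). Left of the dotted line are the flox and flox Cre groups, right of it the WT groups of the separately made table, and the 2 flox Cre KLA libraries are the lowest at Nisch and Tpcn2 while the 2 flox Veh libraries are the lowest at Gm1966.

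**Figure D2:**
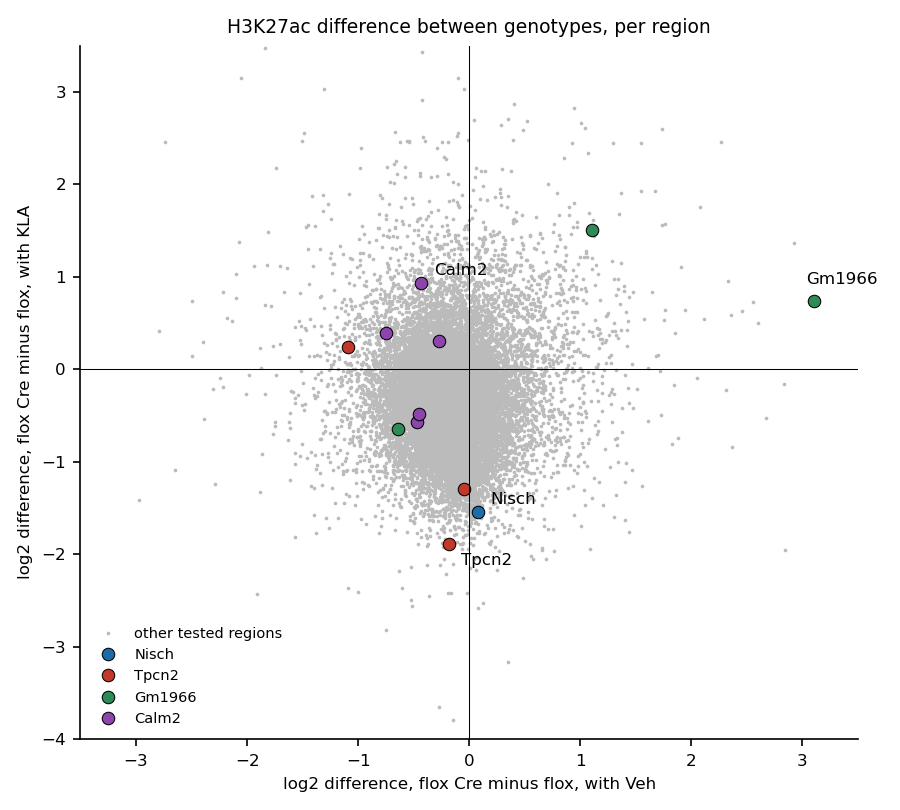
Log2 difference in H3K27ac, flox Cre minus flox, under Veh (horizontal axis) and under KLA (vertical axis) for tested regions (grey points) and member regions (coloured, lead regions named). The Gm1966 lead region sits at 3.10 and 0.74, Nisch at 0.08 and -1.55, Tpcn2 at -0.18 and -1.89 and Calm2 at -0.43 and 0.93, and 15 tested regions outside the axes, the Gm1966 region without flox tags among them, are not drawn.

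WT BMDMs of the DMSO and RGFP966 table gave a reference that the choice of regions had not used. At the Gm1966 lead region WT DMSO levels were 499 and 436 with Veh and 857 and 735 with KLA. Both flox and flox Cre cells were therefore below WT there, flox at a mean of 16.3 and flox Cre at 149 with Veh against 468 in WT, and 152 and 254 against 796 with KLA. At the region in the MMVL30-int element WT levels were 190 and 160 with Veh and 315 and 268 with KLA, where flox cells had almost no tags and flox Cre cells between 67.3 and 91.8. On the scale of log2(level + 1), flox minus WT at the lead region was -4.76 with Veh and -2.38 with KLA, and flox Cre minus WT was -1.65 with both. The median of all tested regions was 0.28 and 0.27 for flox minus WT and 0.08 and -0.09 for flox Cre minus WT, with Veh and KLA respectively. The tables were normalized separately and share no library, so no test was made between them.

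**Figure D3:**
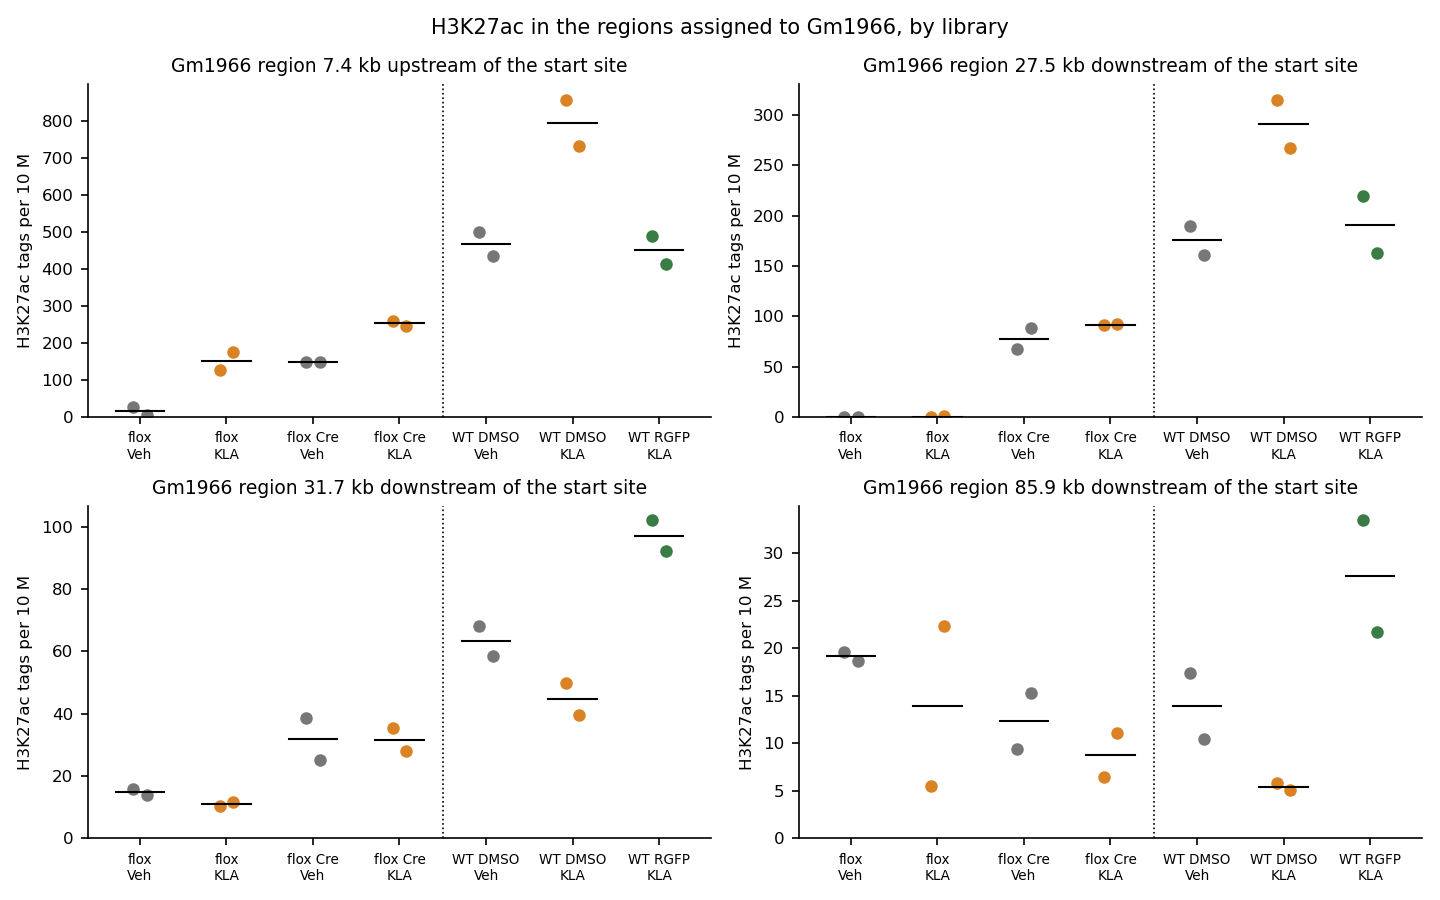
H3K27ac in the 4 regions assigned to Gm1966, in tags per 10 M (vertical axis, from 0), for each library (points) with the group mean (line), flox and flox Cre left of the dotted line and WT right of it. In the upper panels the order is flox, flox Cre, WT with Veh and with KLA, and the region 27.5 kb downstream of the start site has at most 0.620 in any flox library.

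In the same WT libraries Nisch read 785 and 847 with DMSO and Veh and 885 and 731 with DMSO and KLA, and the flox Cre KLA mean of 246 was 0.304 of WT DMSO KLA. Tpcn2 read 661 and 686 with Veh and 372 and 316 with KLA, and the flox Cre KLA mean was 0.358 of the latter. Calm2 read 196 and 222 with Veh and 80.3 and 65.6 with KLA, and the flox Cre KLA mean was 2.75 times the latter. The labels give C57Bl6 as the strain of every group, and whether the genotypes differ in strain background around any of these loci was not tested, since the tables hold counts and no read sequence.

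The response of WT cells to KLA and to RGFP966 differed among the lead regions. KLA lowered H3K27ac at Calm2 by a log2 difference of -1.51 ± 0.23 (adjusted p = 2.49e-10), and RGFP966 raised it under KLA from the levels above to 188 and 186, a difference of 1.35 ± 0.23 (adjusted p = 2.59e-08). Both comparisons share the DMSO KLA libraries. The 2 other intergenic Calm2 regions were called in the same directions in both comparisons, with -3.44 and 2.12 at chr17:87458925-87459925 and -1.09 and 1.74 at chr17:87530073-87531073. Both Calm2 promoter regions were lower with RGFP966, by less than 2-fold, at -0.93 (adjusted p = 3.46e-05, and -1.28 with TMM scaling) for chr17:87446360 and -0.86 (adjusted p = 0.000256) for chr17:87446765. RGFP966 lowered Nisch to 532 and 458 (-0.71 ± 0.19, adjusted p = 0.000414) and Gm1966 to 488 and 415 (-0.82 ± 0.19, adjusted p = 4.59e-05), changes under 2-fold that reached -1.05 and -1.17 with TMM scaling. At Tpcn2, 311 and 246 with RGFP966 was not distinguishable from DMSO KLA (-0.31 ± 0.19, adjusted p = 0.153), while KLA alone had lowered the promoter (-0.97 ± 0.19, adjusted p = 1.90e-06). The median of all tested regions was -0.42 for DMSO KLA against Veh and 0.39 for RGFP966 against DMSO. Of the 12 member regions tested, KLA lowered 5 and raised 0 (34.8% of all tested regions called), and RGFP966 raised 5, 3 of them at Calm2 and 2 at Gm1966, and lowered 0 (36.5% called). With TMM scaling KLA lowered 2 and raised 2, and RGFP966 raised 4 and lowered 4.

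Loss of NCoR gave few differences at these loci in the NKO table, an H3K27ac table with shorter regions. At Nisch WT KLA read 59.7 and 73.1 and NKO KLA 36.1 and 45.1, a log2 difference of -0.71 ± 0.26 that missed the threshold (adjusted p = 0.176). At Tpcn2 the levels were 27.04 and 26.2 in WT KLA and 28.1 and 41.7 in NKO KLA, and at Gm1966 56.0 and 43.4 and 47.3 and 52.1. Of 10 member regions, 1 was higher in NKO under Veh (1.00% of all tested regions called) and by edgeR 0 differed under KLA (0.789% called) or in KLA response (0.697% called), with 1 region at an unadjusted p under 0.05 in each and 0 called by DESeq2. The region called under Veh was the one at chr17:87530438, beside the Calm2 lead region, at 2.01 ± 0.50, and 0 regions were called with TMM scaling, with DESeq2 or without any 1 of the 4 Veh libraries. KLA raised 1 and lowered 1 member region in WT (10.2% called) and lowered 1 in NKO (10.7% called). The raised region was that at chr17:87530438, at 1.70, and the lowered one the Tpcn2 intron 1 region at chr7:145283047, at -1.38 in WT and -1.64 in NKO. The rise was not called by the DESeq2 Wald test, and neither WT call held in every fit that left out 1 library. In WT cells with DMSO the window over the raised site, chr17:87530073-87531073, was called lower with KLA, at -1.09, so the direction differed between these 2 sets of WT libraries.

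Among the 4 lead regions PGC1β signal was highest at Nisch. In WT cells the PGC1β region within the Nisch lead region read 83.4 and 84.6 with Veh and 86.3 and 99.5 with KLA, above 97.8% of all 45675 PGC1β regions, and its level did not differ beyond the spread (0.15 ± 0.27, adjusted p = 0.727). At Gm1966 it read 41.7 and 66.9 with Veh and 78.6 and 66.4 with KLA, above 92.9% of regions (0.40 ± 0.32, adjusted p = 0.388). A weaker PGC1β region at the edge of the Gm1966 lead region, chr7:106651632, rose from 10.6 and 5.11 to 29.5 and 24.02 (1.77 ± 0.52, adjusted p = 0.0186), a call that was lost without PGC1β Veh replicate 2 (1.32). No PGC1β region of this table had its centre within 500 bp of the Tpcn2 or Calm2 lead centre. The nearest at Tpcn2, in intron 1, read 44.1 and 50.2 with Veh and 26.2 and 23.5 with KLA. Its difference of -0.93 was under 2-fold, and with TMM scaling it was called at -1.03. The nearest at Calm2 read 24.7 and 33.0 with Veh and 4.37 and 13.7 with KLA (-1.55).

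A second set of PGC1β libraries, made with DMSO, had regions at all 4 lead centres. Nisch read 93.4 and 112 with Veh, 170 and 180 with KLA, and 84.5 and 123 with KLA and ERKi, above 97.3% of 53474 regions, and Gm1966 52.8 and 67.0, 144 and 87.8, and 111 and 115, above 93.2%. With Veh and KLA the groups did not overlap at either gene, but the differences of 0.77 ± 0.31 and 0.95 ± 0.36 missed the threshold (adjusted p = 0.0859 and 0.0705). Calm2 read 39.8 and 71.4, 33.6 and 25.3, and 40.7 and 29.7, above 59.1% of regions, and the Tpcn2 promoter 32.5 and 64.1, 41.4 and 32.7, and 39.1 and 18.1, above 56.1%. Another Tpcn2 promoter region, chr7:145284329, also centred within 500 bp of the lead centre, was above 64.2%. The PGC1β tables held only WT cells, so they do not show whether these signals are lost in flox Cre cells.

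The PGC1β signal at the MMVL30-int region of Gm1966 was 28.8 and 36.7 with Veh and 12.0 and 34.3 with KLA in WT cells. PU.1, NCoR, HDAC3, p65, ERK1 and p300 also had a region there in WT, and Fosl2 had none, with NCoR rising from 23.9 and 23.5 to 63.2 and 80.2 (called, 1.59) and PU.1 reading 62.1 and 54.8 with Veh and 83.1 and 62.5 with KLA. WT libraries held tags over the stretch in which the flox H3K27ac libraries held 1 tag in all.

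Nisch carried the most factor signal of the 4 lead regions. Within 500 bp of its centre all 14 other tables had a region, and its p300 level, 362 and 354 with Veh and 395 and 362 with KLA, ranked 39 among 67998 regions. KLA lowered NCoR there from 282 and 274 to 173 and 198 (-0.58 ± 0.18, adjusted p = 0.0228), less than 2-fold, and HDAC3 from 305 and 264 to 166 and 195 without passing the test (-0.66 ± 0.37, adjusted p = 0.148). p65 rose from 125 and 161 to 330 and 313 (1.17 ± 0.20, adjusted p = 0.000506), but the sign turned to -0.050 with TMM scaling, since the median p65 region rose by 1.46, and without p65 Veh replicate 1 the difference was 0.99, below 2-fold. Fosl2 varied more between replicates, 324 and 218 with Veh and 191 and 413 with KLA, than between conditions. With ERKi, NCoR under KLA fell at Nisch from 176 and 198 to 38.0 and 66.4 (-1.84 ± 0.25, adjusted p = 0.000155), while the median of all NCoR regions was -1.20 in that comparison and with TMM scaling the Nisch difference was -0.67.

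In intron 1 of Tpcn2 NCoR and HDAC3 signal fell with KLA. Both factors had their Tpcn2 region with most tags there, the NCoR one 762 bp downstream of the TSS. NCoR, HDAC3, Fosl2 and ERK1 also each had a promoter region that overlapped the lead region, with centres 501.5 to 522 bp from its centre. None of these promoter regions was called for KLA against Veh. In intron 1 NCoR fell from 323 and 339 to 94.0 and 88.5 (-1.86 ± 0.19, adjusted p = 8.96e-05). HDAC3 fell from 293 and 243 to 63.3 and 91.3 (-1.82 ± 0.38, adjusted p = 1.24e-05), a call lost without either HDAC3 Veh replicate (-1.67 and -1.94). PU.1 read 257 and 245 with Veh and 135 and 138 with KLA (-0.88). At the promoter p65 fell from 67.4 and 55.0 to 22.7 and 19.2 (-1.54 ± 0.37, adjusted p = 0.00378), lost without p65 KLA replicate 1 (-1.67) or 2 (-1.43).

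At the Gm1966 lead region p65 rose with KLA from 72.7 and 58.7 to 178 and 174 (1.42 ± 0.24, adjusted p = 0.000383), a rise that was 0.19 with TMM scaling. NCoR read 84.8 and 111 with Veh and 135 and 123 with KLA (0.40 ± 0.24, adjusted p = 0.185), and PU.1 fell from 155 and 171 to 120 and 129 (-0.38 ± 0.11, adjusted p = 0.00158), close to the median of all PU.1 regions, -0.41. p300 rose at the edge of the region, chr7:106651632, from 13.2 and 28.3 to 90.03 and 81.1 (2.05 ± 0.32, adjusted p = 3.86e-05). The Gm1966 region with the most NCoR tags, chr7:106551315, rose from 69.3 and 87.1 to 209 and 248 (1.55 ± 0.22, adjusted p = 0.000476), with its centre 93217 bp downstream of the TSS.

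At the Calm2 lead region PU.1, p65 and p300 signal fell with KLA. PU.1 read 82.2 and 87.8 with Veh and 28.8 and 33.1 with KLA (-1.45 ± 0.19, adjusted p = 1.95e-11). p65 fell from 52.5 and 40.1 to 18.0 and 14.4 (-1.51 ± 0.42, adjusted p = 0.00866), lost without p65 KLA replicate 1 (-1.68) or 2 (-1.36), and p300 from 33.8 and 48.6 to 18.9 and 21.6 (-1.02 ± 0.35, adjusted p = 0.0190), lost without p300 Veh replicate 2 (-0.74) or either KLA replicate (-0.93 and -1.12). Fosl2, for which the sequence holds the AP-1 motif, read 77.6 and 35.7 with Veh and 13.97 and 31.6 with KLA and did not pass (-1.26 ± 0.90, adjusted p = 0.380). A second p300 region at chr17:87532064 rose from 6.89 and 10.5 to 24.6 and 24.3 (1.49), a call lost with TMM scaling (0.96) or without either KLA replicate (1.48 and 1.49). In the tables of KLA against Veh without DMSO, NCoR, HDAC3, PGC1β and ERK1 had no region within 1000 bp.

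**Figure D4:**
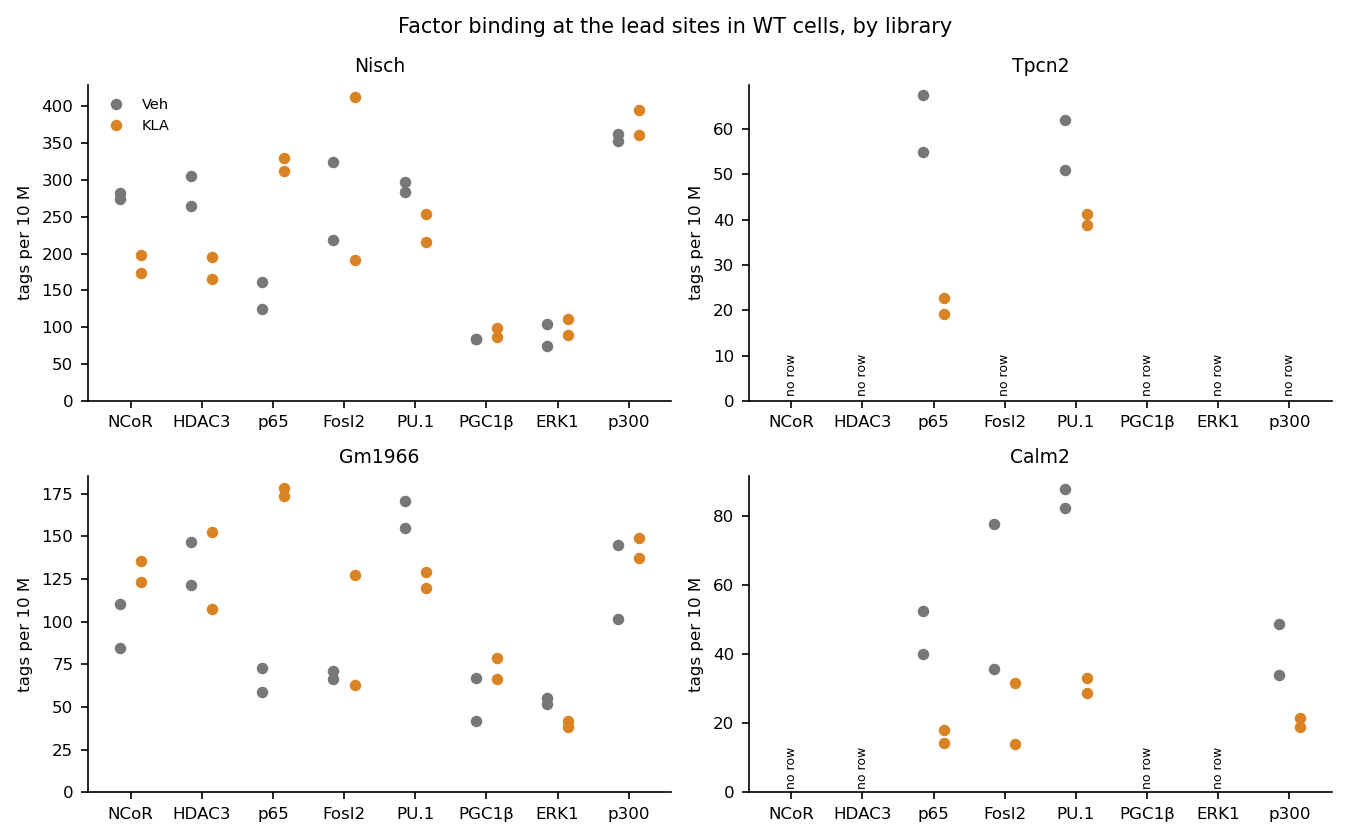
Tags per 10 M (vertical axis, from 0) of 8 factors in the Veh (grey) and KLA (orange) libraries of WT BMDMs, 2 points per group. Each factor is shown in its region with the highest level among those centred within 500 bp of the lead centre. Nisch and Gm1966 have a region for each factor. Within 500 bp NCoR, HDAC3, PGC1β and ERK1 have none at Tpcn2 or Calm2, and Fosl2 and p300 none at Tpcn2. Within 1000 bp of the Tpcn2 centre each factor has a region, and the promoter regions of ERK1, HDAC3, Fosl2 and NCoR are centred 501.5 to 522 bp from it. p65 is higher with KLA at Nisch (not with TMM scaling, -0.050) and Gm1966 and lower at Tpcn2 and Calm2.

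The KLA responses over all member regions were counted for each factor, and Gm1966 has the most regions for several of them. For p65, 13 of 24 rose and 2 fell (62.4% of all tested regions called), 7 of the risen ones at Gm1966 and 4 at Nisch, but with TMM scaling 5 rose and 6 fell. For p300, 13 of 28 rose and 4 fell (54.9% called), the 4 at Calm2, and with TMM scaling 9 rose and 6 fell. For NCoR, 8 of 23 rose and 3 fell (40.1% called), with 7 of the 8 at Gm1966, and for HDAC3 3 of 15 rose and 1 fell (38.8% called; 2 and 1 with TMM scaling), the 3 at Gm1966. For PGC1β, 4 of 21 rose, all at Gm1966, and 3 fell, all at Calm2 (22.8% called), against 3 and 4 with TMM scaling. For PU.1 0 rose and 5 of 19 fell, all at Calm2 (26.3% called), for Fosl2 1 rose and 1 fell of 13 (15.6% called; 3 and 2 with TMM scaling), and for ERK1 1 of 17 rose (12.9% called). In the PGC1β libraries with DMSO 3 of 20 rose and 0 fell (17.6% called), and 1 rose with TMM scaling. With ERKi under KLA, against KLA libraries without DMSO in their labels, NCoR fell at 8 of 25 and rose at 1 (49.2% called). With TMM scaling it fell at 0 and rose at 2. PGC1β with ERKi, against KLA with DMSO, was called at 0 of 20 by edgeR and by DESeq2, with 5 at an unadjusted p under 0.05 (0.286% called). From day 0 to day 4, 2 of 7 p300 regions rose and 1 fell (62.5% called), with 0 risen and 1 fallen under TMM scaling, and 0 of 5 ERK1 regions were called by either tool, with 1 at an unadjusted p under 0.05 (2.35% called).

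Of the neighbouring regions assigned to other genes, 3 of 6 at Nisch and 9 of 10 at Tpcn2 were called lower in flox Cre under KLA, and 0 of 2 at Gm1966 and 0 of 8 at Calm2. Within 200 kb of the lead centres lay 42 regions, 33 of them assigned to other genes, of which 26 could be tested. Under Veh 0 of these 26 were called by edgeR or DESeq2, with 5 at an unadjusted p under 0.05, and under KLA 12 were called lower and 0 higher, against 7.52% of all tested regions called. With TMM scaling 4 of the 26 were called lower under KLA, 2 at Nisch and 2 at Tpcn2, and 1 higher, a Stpg4 region near Calm2 at 1.11. Beside Nisch the regions were those of Stab1, which encodes the scavenger receptor stabilin-1 of macrophages. The one at chr14:31160238 read 203 and 208 in flox Veh, 282 and 239 in flox KLA, 206 and 202 in flox Cre Veh and 74.4 and 61.9 in flox Cre KLA, a KLA genotype difference of -1.94 ± 0.14. The other, at chr14:31165866, differed by -1.40 ± 0.11 and the promoter of Smim4 by -1.11 ± 0.19 (-0.71 and no longer called with TMM scaling), whereas the promoters of Pbrm1, Dnah1 and Capn7, over 100 kb from the lead centre, differed by -0.31, -0.31 and -0.28.

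Around Tpcn2, 10 of 12 tested regions beside the lead one were called lower in flox Cre KLA (7.52% of all tested regions called). Their median difference was -1.30. Among the 12 were 2 regions of Tpcn2 itself, the intron 1 one called at -1.29 and chr7:145252805 not called at 0.23. The intron 1 call was lost with TMM scaling. Some windows overlap and share tags, such as chr7:145110355 and chr7:145111096, so the counts are not of independent regions. Of the 9 tested regions assigned to 1810010D01Rik, up to 195 kb away, 8 were called, between -1.03 and -1.73, and 2 with TMM scaling. The one with the highest level, chr7:145111096, read 688 and 671 in flox Veh, 595 and 615 in flox KLA, 594 and 623 in flox Cre Veh and 263 and 224 in flox Cre KLA. On the other side, 9.41 kb away, a region assigned to Mrgprf differed by -1.37 ± 0.29, or -0.98 and no longer called with TMM scaling. The mean of the flox Cre KLA libraries was the lowest of the 4 groups at each of these called regions.

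Beside Gm1966 the region of Gm4759, -123 kb from the lead centre, read 68.4 and 86.6 in flox Veh, 145 and 154 in flox KLA, 77.9 and 80.9 in flox Cre Veh and 148 and 169 in flox Cre KLA, with differences of 0.04 and 0.09. On the other side lie olfactory receptor genes, whose 7 regions had at most 8.98 in any library, and 6 of them were below the filter. The higher signal in flox Cre cells was measured at the 3 Gm1966 regions between the lead centre and -39.2 kb from it. Around Calm2 none of the 6 tested regions of Stpg4 and Epcam was called under Veh or KLA, apart from the Stpg4 region called higher under KLA with TMM scaling, and their KLA differences lay between -0.68 and 0.78.

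**Figure D5:**
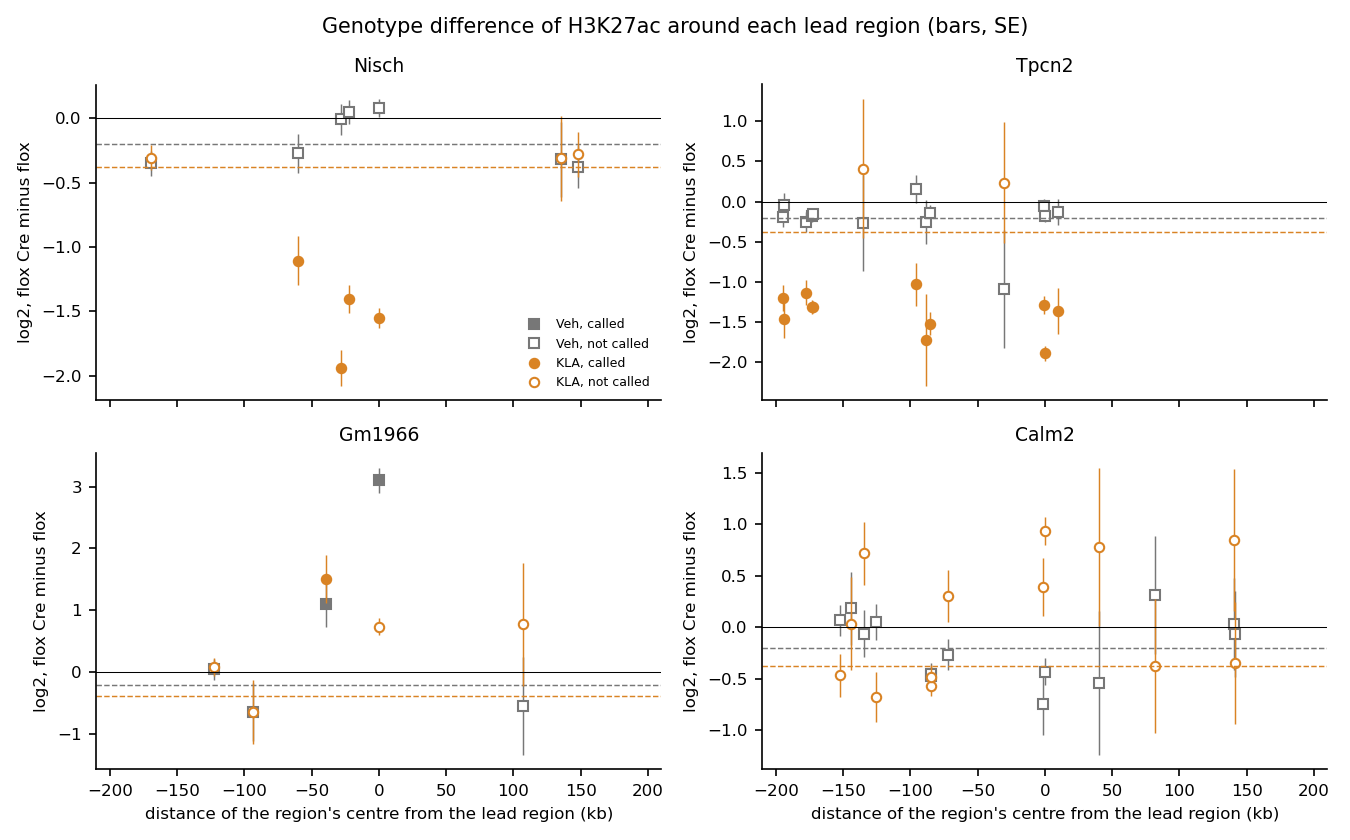
Log2 difference in H3K27ac, flox Cre minus flox (vertical axis, bars SE), for tested regions by distance of their centre from the lead centre in kb (horizontal axis), under Veh (grey squares) and KLA (orange circles), filled where called. Dashed lines are the medians of all tested regions, -0.20 and -0.38, and the called KLA values at Nisch and Tpcn2 run from -1.03 to -1.94, while the Gm1966 region without flox tags is not drawn.

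Related genes and genes of the PGC1 pathway gave 1 called region between them. Of 10 paralogues of the members, 4 had regions, and under KLA 1 of their 12 regions was called lower (7.52% of all tested regions called), the promoter of Tpcn1, which encodes TPC1. It read 52.7 and 56.1 in flox Veh, 13.5 and 21.1 in flox KLA, 44.9 and 39.8 in flox Cre Veh and 3.61 and 2.60 in flox Cre KLA (-2.45 ± 0.50). The Gvin1 region at chr7:106236368 read 136 and 161 in flox Veh and 182 and 155 in flox Cre Veh, and 551 and 590 against 553 and 555 with KLA. Of 16 genes of the PGC1 pathway, 10 had regions and 12 regions were tested, and by edgeR and DESeq2 0 were called between genotypes under Veh or KLA, with 5 and 8 at an unadjusted p under 0.05, where 0.397% and 7.52% of all tested regions were called. Their medians, -0.26 under Veh and -0.44 under KLA, lay near those of all regions. The promoters of Nrf1 (-0.36 and -0.44) and Esrra (-0.36 and -0.32), which encode partners of PGC1β, are examples.

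The promoter region of Ppargc1b, the gene of PGC1β, does not check the deletion, as a measure of H3K27ac. It read 51.6 and 49.9 in flox Veh and 39.9 and 42.4 in flox Cre Veh (-0.30 ± 0.27, adjusted p = 0.489). Under KLA it read 25.1 and 25.4 in flox and 20.2 and 31.3 in flox Cre (0.04 ± 0.31, adjusted p = 0.941). The region at the TSS of Lyz2, into which Cre is inserted in LysM-Cre mice, was lower in flox Cre cells, with 440 and 409 against 257 and 237 under Veh (-0.78 ± 0.09, adjusted p = 3.49e-13) and 393 and 398 against 150 and 124 under KLA (-1.53 ± 0.10, adjusted p = 3.23e-44).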

How the data were processed

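ChIP-seq tags of 70 libraries in 15 tables were used. As the study's methods and the labels state, the authors aligned reads with Bowtie2 to mm10 and counted tags per region with HOMER, each replicate separately and with at most 3 tags per position. The deposited values are raw tag counts (the header states each library's total), and tool versions are not given in the sources used here. The authors' DESeq2 comparisons were not used. 0 value columns were left without a sample.

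Levels are counts per 10 M of the header total. Each table was fitted whole with edgeR 4.0.16 (R 4.3.3), with header totals as library sizes and regions kept at 4 tags or more in a library (16 for H3K27ac). The quasi-likelihood F-test was two-sided, with Benjamini-Hochberg adjustment over the table, and calls needed adjusted p under 0.05 and more than 2-fold. The SE of a log2 difference was derived from the F statistic. DESeq2 1.42.0, TMM scaling, other filters and omission of single libraries were alternatives. The script was tested on simulated data. Depth, 4.30 to 21.5 M tags, limits low regions, and intervals cover counting error only. The labels call replicates biological. Same-numbered libraries were not paired (correlations of deviations between -0.027 and 0.026). Named regions are the lead regions, those within 500 bp of a lead centre, and the member region with most tags. Members and lists were chosen with earlier results of these data known. A region's reads at Gm1966, Gvin1 and Calm2 may be shared with near-identical copies, and those counts are uncertain. Sequences came from GRCm38.p6, read with pysam 0.24.0. 1 neighbouring gene is not reported here.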

Additional observations from a re-analysis of the deposited data

Results flagged for a closer look

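KLA moved H3K27ac in opposite directions in the 2 genotypes at the lead regions of Nisch and Calm2. At Nisch both flox KLA libraries lay above both flox Veh libraries and both flox Cre KLA libraries below both flox Cre Veh libraries, and the KLA responses differed by -1.63 on the log2 scale. At Calm2 the directions were the other way round, with a difference of 1.36. These differences were not tested here, because the regions were chosen by them.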

How the results depend on the processing

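With 2 libraries a group and low tag counts at many factor regions, counts of member regions called moved with the settings. The cause was not tested. With TMM scaling, DESeq2 size factors and the DESeq2 Wald test in turn, calls over the 3 genotype comparisons at neighbours were 16, 17 and 15 in place of 28, Fosl2 calls 5, 5 and 5 in place of 2, RGFP966 calls 8, 8 and 8 in place of 5, calls for NKO against WT under Veh 0, 0 and 0 in place of 1, NCoR calls with ERKi 2, 2 and 3 in place of 9, PGC1β calls with DMSO 1, 1 and 1 in place of 3, and p300 calls by day 1, 1 and 1 in place of 3. The Wald test alone gave 2 ERK1 calls in place of 1, 1 genotype call under Veh in place of 3, and 1 call for KLA in WT of the NKO table in place of 2. Without the fold minimum, calls were 7 for KLA in flox and 8 in flox Cre, 6 and 9 between genotypes under Veh and KLA, 24 over the lists, 9 for DMSO KLA, 10 for RGFP966, 2 for KLA in NKO and 14 for PU.1. The p65 difference at Nisch, chr14:31188737, turned from 1.17 to -0.050, -0.016 and -0.016 with TMM scaling, DESeq2 size factors and the Wald test.

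Same-numbered libraries share only a number, and a fit with the replicate block gave 2 ERK1, 1 Fosl2 and 0 p300 day calls in place of 1, 2 and 3.

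When each library was left out in turn, calls ranged from 0 to 3 for ERK1 (0 without KLA replicate 2, 3 without Veh replicate 2, 2 without KLA replicate 1), 0 to 8 for Fosl2 (0 without either Veh replicate, 6 and 8 without KLA replicates 1 and 2), 1 to 6 for HDAC3 (1 without either Veh replicate), 5 to 12 for NCoR (5 without either KLA replicate), 2 to 13 for NCoR with ERKi (2 and 4 without NCoR KLA replicates 1 and 2), 1 to 10 for PGC1β (2 and 1 without Veh replicates 1 and 2), 1 to 4 for PGC1β with DMSO (1 without Veh or KLA replicate 1), 5 to 8 for PU.1 (8 without KLA replicate 2), 8 to 17 for p300 (8 and 11 without KLA replicates 1 and 2), 0 to 4 for p300 by day (0 without either day 4 replicate) and 9 to 17 for p65 (9 without either KLA replicate). They ranged from 2 to 4 for KLA in flox (4 without flox KLA replicate 2), 4 to 5 in flox Cre, 2 to 3 between genotypes under Veh, 5 to 6 under KLA and 5 to 6 for the response, 25 to 29 at neighbours, 1 to 5 over the lists (5 without flox Cre KLA replicate 1, 1 without flox Cre KLA replicate 2 or flox KLA replicate 2), 3 to 5 for DMSO KLA (3 without DMSO Veh replicate 1 or DMSO KLA replicate 2), 5 to 7 for RGFP966, 0 to 2 for KLA in WT (0 without WT Veh replicate 2 or WT KLA replicate 1, 1 without WT Veh replicate 1 or WT KLA replicate 2) and in NKO (0 and 2 without NKO Veh replicates 1 and 2) and 0 to 1 for NKO against WT under Veh (0 without any of the 4 Veh libraries), and were 0 in each run for NKO against WT under KLA and for its response, PGC1β with ERKi and ERK1 by day. Of all counts, 288 stayed within 1.5 times and 77 did not.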
